A study of Mus musculus with 4 samples.

Results

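Fibroblast growth factors (FGFs) and their receptors were followed in the mouse cortex 21 days after photothrombotic (PT) injury, in which a photosensitive dye in the blood is lit through the skull to close cortical vessels. The set held 10 of the 33696 features counted: the secreted ligands Fgf1, Fgf2, Fgf7, Fgf9, Fgf10 and Fgf18, the intracellular FGF homologous factor Fgf13, and the receptor tyrosine kinases Fgfr1, Fgfr2 and Fgfr3. They were chosen by gene name, not by a measured value, though with earlier results of these data known. Their unique molecular identifiers (UMIs, each standing for a captured RNA molecule) were summed by cell class, fibroblast state, region and library. Single-nucleus RNA sequencing gave 1 gene expression library per genotype and 1 tag library that assigned its nuclei to the lesion or to the surrounding parenchyma. Each library pooled nuclei from 1 male and 1 female mouse aged 7 to 21 weeks, mixed as 75% lesion and 25% parenchyma. The control was labelled WT. The other genotype, Cxcl12-cKO, was labelled Col1a2(creER); Cxcl12(flox), in which a tamoxifen-inducible Cre under a collagen 1 promoter acts in fibroblasts on a floxed Cxcl12 gene. By the study's methods tamoxifen was given in courses after the injury, and the controls of its conditional knockouts could be Cre-negative or carry 1 floxed allele. All mice had PT injury, so no uninjured brain was compared. The libraries are called control-labelled and cKO-labelled here, and where values come in pairs that of the control-labelled library is given before that of the cKO-labelled library.

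FGFs signal by bringing together receptor dimers with heparan sulfate as a required partner, and the receptors then act through the adaptor Frs2 to the MAP kinase cascade, whose products include Etv transcription factors and the feedback inhibitors of the Sprouty and Dusp families. Fgf7 and Fgf10 are typically made by mesenchymal cells and bind the epithelial splice form of Fgfr2, whereas Fgf1 binds all receptor forms and Fgf2 is a classical mitogen of fibroblasts and astrocytes. Fgf13 is not secreted: it binds voltage-gated sodium channels and microtubules inside the cell. Counts from the 3′ end cannot tell the splice forms of Fgfr2 or the start sites of Fgf13 apart.

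The 4 matrices held 23489 barcodes, of which 21743 passed the filters on UMIs, genes and mitochondrial share. Median UMIs per nucleus were 2962 and 2975 in the lesion and 15915 and 16648 in the parenchyma of the control- and cKO-labelled libraries, so regions differed in depth and levels are given as UMIs per 1000000 UMIs of the class (CPM). Between the libraries 47 barcodes were shared, and within a library none of the lesion and parenchyma barcodes were. Cxcl12, the targeted gene, went against the labels: lesional fibroblast-like nuclei held 106 CPM (1523 UMIs) in the control-labelled library and 217 CPM (3218 UMIs) in the cKO-labelled library. It was also higher in the latter within the female nuclei, at 100.5 and 267 CPM, and within the male nuclei, at 107 and 188 CPM. Sources used here do not give the deleted part of Cxcl12, and 3′ counts may lie outside it, so these values do not check the labels, and every direction between genotypes below is a direction between the libraries labelled that way. With 1 library a genotype there was no replicate and no test. All intervals are 95% intervals for counting error only, exact Poisson for levels and exact conditional binomial for ratios.

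Cell classes were rebuilt by clustering with all FGF family and pathway genes left out, and were named from fixed markers. All 7 fibroblast markers were higher in the fibroblast-like class of both libraries than in other nuclei, with a summed level of 4203 and 3673 CPM against 257 and 128 CPM. An osteoblast-lineage-like class, led by Bglap, Bglap2 and Sp7, had 6 of 8 markers higher and 2 at 0. Such nuclei were found in the lesion alone, 348 in the control-labelled library and 84 in the cKO-labelled library. Classes with under 50 nuclei in a region and library were not compared, with the exception of parenchymal astrocyte-like nuclei. In the counts of the whole set, Fgfr2 (39993 UMIs), Fgf13 (32793 UMIs) and Fgfr1 (15975 UMIs) were the most often counted members and Fgf18 (232 UMIs) the least. Among 19 further family genes and co-receptors, 8 reached 100 UMIs, and Fgf4, Fgf8, Fgf15 and Fgf21 had none. Fgf12 and Fgf14, the neuronal homologous factors, had 212856 and 409263 UMIs.

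The members fell into distinct cellular sources. Fgf2 was highest in lesional astrocyte-like nuclei and Fgf7 in cells of the mesenchyme, and Fgf9 and Fgf10 were neuronal. Fgfr1 was abundant in fibroblast-, osteoblast- and astrocyte-like nuclei, and Fgfr2 in these and in oligodendrocyte-like nuclei. Fgf13 was carried by interneurons, myeloid cells and osteoblast-lineage-like nuclei. No other ligand of the set reached the level of Fgf2 in astrocyte-like nuclei in any lesional class.

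**Figure D1:**
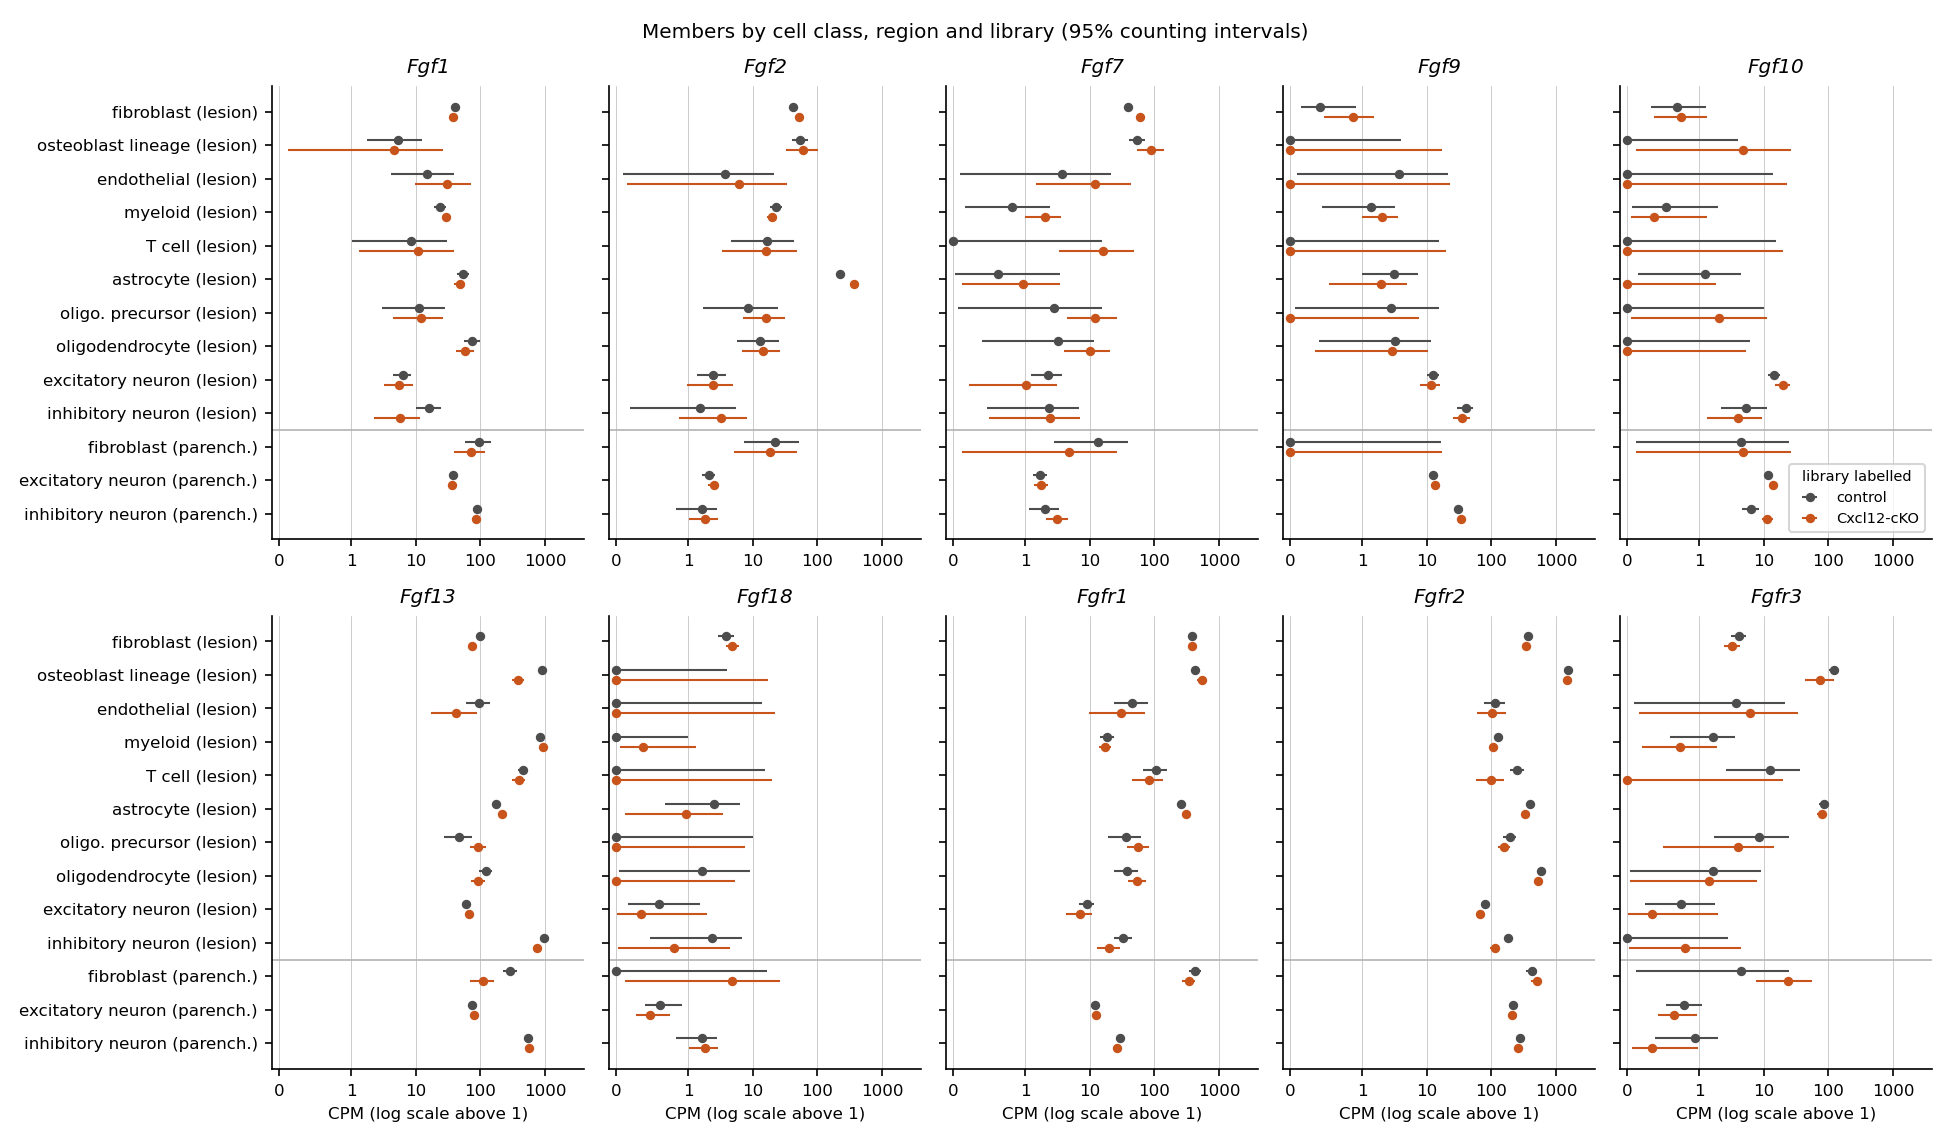
Level of each member (CPM, log axis above 1) in every cell class of the lesion and, below the line, of the parenchyma, for the control- and cKO-labelled libraries; points are summed CPM and bars 95% counting intervals. Fgf2 peaks in lesional astrocyte-like nuclei at 222 and 365 CPM, Fgf7 in osteoblast- and fibroblast-like nuclei, and Fgfr2 in osteoblast-lineage-like nuclei at 1530 and 1462 CPM.

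Among the ligands, Fgf2 stood at 222 CPM (199 to 246; 357 UMIs) in lesional astrocyte-like nuclei of the control-labelled library and at 365 CPM (339 to 392; 750 UMIs) in the cKO-labelled library. Osteoblast-lineage-like nuclei followed at 53.5 and 60.7 CPM and fibroblast-like nuclei at 42.6 and 52.6 CPM. The interval of the astrocyte-like class did not meet that of the next class in either library. Lesional neurons held at most 3.22 CPM of Fgf2.

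Fgf7, a mesenchymal ligand also known as keratinocyte growth factor, was at 54.6 and 88.7 CPM in osteoblast-lineage-like nuclei and at 39.2 (36.1 to 42.6) and 59.0 (55.2 to 63.1) CPM in fibroblast-like nuclei. The intervals of these neighbours overlapped in the control-labelled library. In the other lesional classes Fgf7 was at most 3.76 CPM in the control-labelled library and 16.3 CPM in the cKO-labelled library. After thinning every nucleus to 1000 UMIs, 2.48% and 4.15% of fibroblast-like nuclei held an Fgf7 UMI. In parenchymal excitatory-neuron-like nuclei the share was 0.09% and 0.15%. These come from the deeper region, so they are not a like background of free RNA for lesional nuclei. A share at 1000 UMIs depends on the level of the gene, so it does not show whether Fgf7 rested on few nuclei. Fgf7 overlaps Fam227b on the opposite strand, and the strand setting of the counting was not given in the sources used here. In lesional fibroblast-like nuclei Fam227b stood at 24.4 and 16.3 CPM, lower in the library in which Fgf7 was higher.

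Fgf1, which lacks a classical secretion signal, was spread over glia and fibroblasts of the lesion. It reached 74.8 and 58.6 CPM in oligodendrocyte-like, 54.1 and 48.2 CPM in astrocyte-like and 40.0 (36.8 to 43.4) and 38.3 (35.2 to 41.6) CPM in fibroblast-like nuclei. In the control-labelled library, the intervals of these neighbours overlapped. In the parenchyma it was carried by inhibitory-neuron-like nuclei at 87.8 and 85.6 CPM and excitatory-neuron-like nuclei at 38.1 and 36.1 CPM. The few fibroblast-like nuclei of the parenchyma held 93.8 and 70.3 CPM.

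Among the classes with at least 50 nuclei, Fgf9 and Fgf10 exceeded 10 CPM in neurons alone. Fgf9, a neuronal and glial ligand, was at 39.8 and 34.6 CPM in inhibitory-neuron-like nuclei of the lesion and at 30.9 and 33.9 CPM in those of the parenchyma, and stood at 0.418 and 0.875 CPM in fibroblast-like nuclei. In the parenchyma, Adarb2 interneuron-like nuclei held 46.2 and 49.3 CPM of Fgf9 and Pvalb or Sst interneuron-like nuclei 36.9 and 41.1 CPM. Fgf10 was highest in layer 6 excitatory-neuron-like nuclei, at 20.8 and 30.4 CPM, and was 0.265 and 0.963 CPM in middle-layer ones. Fibroblast-like nuclei, the cell type in which Fgf10 is known from other organs, held 0.696 and 0.740 CPM. Fgf18, a ligand of bone and cartilage, reached 3.90 and 4.85 CPM in fibroblast-like nuclei (56 and 72 UMIs).

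Fgf13, the homologous factor, was not a neuronal gene alone. In the lesion, inhibitory-neuron-like nuclei held 948 and 747 CPM, osteoblast-lineage-like nuclei 902 (843 to 965) and 383 (305 to 475) CPM and myeloid-like nuclei 835 (806 to 865; 3080 UMIs) and 916 (890 to 941; 5003 UMIs) CPM. In the control-labelled library the intervals of these classes overlapped in turn. Thinned to 1000 UMIs, 33.3% and 38.6% of myeloid-like nuclei held an Fgf13 UMI against 7.41% and 4.02% of lesional oligodendrocyte-like nuclei. Within the myeloid-like nuclei, homeostatic microglia-like nuclei (832 and 970) held 1296 and 1472 CPM. Border-associated macrophage-like nuclei (128 and 85) held 149 and 74.7 CPM, and dendritic-like nuclei 141 and 306 CPM. T cell-like nuclei stood at 459 and 391 CPM, and also carried myeloid markers with a summed level of 2138 and 1698 CPM, whose part in that value was not tested.

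Among neurons of the parenchyma, Fgf13 ranged from 30.3 and 35.9 CPM in layer 6 excitatory-neuron-like nuclei to 2066 and 1982 CPM in Adarb2 interneuron-like nuclei. Pvalb or Sst interneuron-like nuclei lay between, at 344 and 396 CPM, and striatal projection neuron-like nuclei held 77.2 and 99.6 CPM. The order of these types was the same in both libraries for the interneurons, and Adarb2 nuclei stood above every other neuron type in each.

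**Figure D2:**
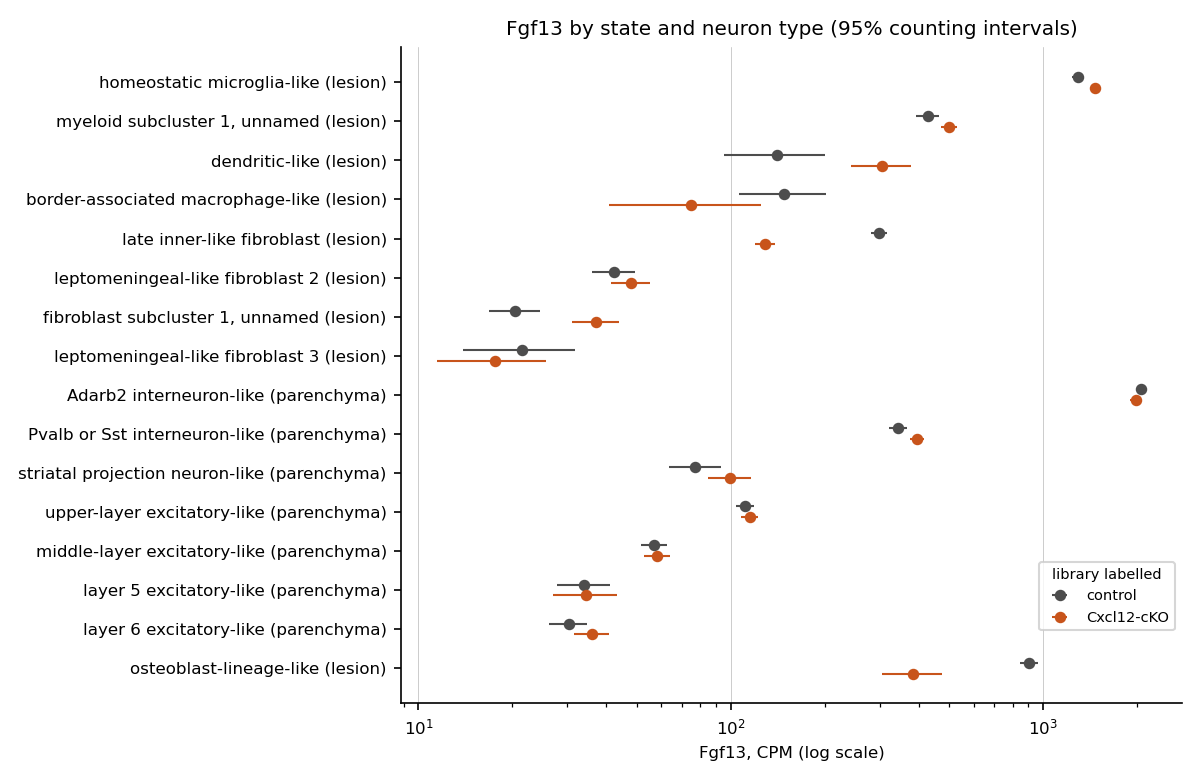
Fgf13 level (CPM, log axis) in lesional fibroblast-like and myeloid-like subclusters, other lesional classes and neuron types, for the control- and cKO-labelled libraries, with 95% counting intervals. Adarb2 interneuron-like nuclei lie near 2000 CPM and homeostatic microglia-like nuclei at 1296 and 1472 CPM, while the late inner-like fibroblast subcluster lies at 299 and 129 CPM.

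Of the receptors, Fgfr1, the main receptor of mesenchyme, was at 424 and 542 CPM in osteoblast-lineage-like nuclei and 380 and 385 CPM in fibroblast-like nuclei (5459 and 5720 UMIs). Astrocyte-like nuclei followed at 254 and 309 CPM, and myeloid-like nuclei were at 18.4 and 17.4 CPM. Thinned to 1000 UMIs, 31.0% and 30.5% of fibroblast-like nuclei held an Fgfr1 UMI, against 2.14% and 1.64% of myeloid-like nuclei.

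Fgfr2 was most abundant in osteoblast-lineage-like nuclei at 1530 and 1462 CPM, next in oligodendrocyte-like nuclei at 581 and 532 CPM, then in astrocyte-like (391 and 332 CPM) and fibroblast-like nuclei (369 and 342 CPM). In the control-labelled library the osteoblast- and oligodendrocyte-like levels each stood apart from the next, and the astrocyte- and fibroblast-like intervals overlapped. Fgfr3, a receptor of astrocytes and of growing bone, was at 122 and 74.7 CPM in osteoblast-lineage-like and 84.5 and 79.3 CPM in astrocyte-like nuclei. Fibroblast-like nuclei held 4.11 and 3.23 CPM, and neurons less than 1 CPM. As a class, lesional fibroblast-like nuclei thus carried Fgfr1 and Fgfr2 RNA with scarcely any Fgfr3. Whether single nuclei held both receptors was not tested.

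The lesional fibroblast-like nuclei formed 4 subclusters with at least 50 nuclei in each library, and the members separated them although none had been used to build them. A late inner-like subcluster (1087 and 1411 nuclei) was named from Cdh18, Sema3c and collagen genes. It was led by Rbpjl, Lama3 and Matn4, the last a listed marker of dural fibroblasts. Its name follows the study's state of the lesion core, which the study itself located with FGF13 protein, so a high Fgf13 there is not independent of that name. An unnamed subcluster led by Ccn3 and Hs3st1 (number 1 in the plots) held 1366 and 929 nuclei. Of a pair of leptomeningeal-like subclusters, the Igfbp3-led (number 2 in the plots) held 1341 and 1277 nuclei and the Dcdc2a- and Prex2-led (number 3) 371 and 466. With 6 members open to a call, those past 2-fold over the other fibroblast-like nuclei in the same direction in both libraries numbered 4 in the late inner-like, 3 in the Ccn3-led, 2 in the Igfbp3-led and 1 in the Dcdc2a-led subcluster. Over all genes open to it that call was made for 7.07%, 6.38%, 6.63% and 6.47%.

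Fgf2, Fgf7 and Fgf13 were higher and Fgf1 lower in the late inner-like subcluster as a whole. The 300 bases around the start site of the genes that were higher there are shown, because these members shared a direction, with the match to a GC box (GGGCGG) in capitals. They are RefSeq promoters of build GRCm38.p6, at chr3:37348403-37348702 on the plus strand for Fgf2, at chr2:126034408-126034707 on the plus strand for Fgf7, and, for the farthest upstream of 4 listed start sites of Fgf13, at chrX:59585523-59585822 on the minus strand.
Fgf2: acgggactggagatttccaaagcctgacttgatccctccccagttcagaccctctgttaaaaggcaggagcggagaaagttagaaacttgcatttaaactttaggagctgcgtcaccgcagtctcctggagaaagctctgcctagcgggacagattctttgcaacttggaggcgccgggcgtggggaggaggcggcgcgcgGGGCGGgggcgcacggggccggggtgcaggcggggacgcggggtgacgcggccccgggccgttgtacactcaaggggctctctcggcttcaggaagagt
Fgf7: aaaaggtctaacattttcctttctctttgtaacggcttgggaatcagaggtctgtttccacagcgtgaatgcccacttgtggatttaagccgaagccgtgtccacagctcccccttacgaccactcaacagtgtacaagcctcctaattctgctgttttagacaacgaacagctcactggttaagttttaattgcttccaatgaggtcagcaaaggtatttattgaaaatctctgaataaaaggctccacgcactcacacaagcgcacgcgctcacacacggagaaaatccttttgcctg
Fgf13: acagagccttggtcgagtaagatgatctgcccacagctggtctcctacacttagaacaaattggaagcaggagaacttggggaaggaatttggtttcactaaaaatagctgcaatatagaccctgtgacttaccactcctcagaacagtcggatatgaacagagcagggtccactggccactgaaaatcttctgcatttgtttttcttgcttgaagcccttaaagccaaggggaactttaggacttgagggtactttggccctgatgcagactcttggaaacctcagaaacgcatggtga

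Both strands were searched for a GC box and for the sites of 3 other factors. The letters used for AP-1, a factor downstream of growth factor signals, were TGANTCA. A TEAD factor, which acts in mechanical signalling, was searched as GGAATG. The TATA box of core promoters was searched as TATAAA. Fgf2 held 1 GC box and none of the other motifs, and Fgf7 and Fgf13 held none of the 4 in this window. Of 32851 listed promoters of that length, 35.7% hold a GC box, 7.81% the AP-1 letters, 14.7% the TEAD letters and 13.6% a TATA box. The 3 windows thus had no searched motif in common.

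Fgf2 stood at 81.4 CPM (295 UMIs) in the late inner-like subcluster and 29.5 CPM in the other fibroblast-like nuclei of the control-labelled library, and at 83.1 CPM (457 UMIs) and 34.6 CPM in the cKO-labelled library. The log2 ratios were 1.46 (1.23 to 1.70) and 1.26 (1.05 to 1.47). Nudt6, which overlaps Fgf2 on the opposite strand, was at 7.4 and 7.3 CPM there and did not exceed 7.73 CPM in any of the 4 subclusters. For Fgf7 the late inner-like levels were 76.4 and 103 CPM against 26.7 and 33.0 CPM, log2 ratios of 1.52 (1.27 to 1.76) and 1.64 (1.44 to 1.85). Fam227b was at 8.5 and 9.8 CPM in these nuclei and highest in the Ccn3-led subcluster at 52.4 and 44.6 CPM, where Fgf7 was at 22.8 and 29.9 CPM. Within the late inner-like subcluster, Fgf7 was not high throughout. At finer clustering a group led by Nav2, Erg and Cdh18 (493 and 691 nuclei) held 31.5 and 23.4 CPM of Fgf7. A Col24a1-led group held 125 and 186 CPM and a Kctd8-led group 97.6 and 143 CPM.

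Among the members open to a call, Fgf13 had the largest ratio over fibroblast states in the control-labelled library. It was at 299 CPM (281 to 317; 1084 UMIs) in the late inner-like subcluster of the control-labelled library, against 29.5 CPM in the other fibroblast-like nuclei, a log2 ratio of 3.34 (3.16 to 3.53). In the cKO-labelled library it was at 129 CPM (120 to 139; 711 UMIs) against 39.7 CPM, a log2 ratio of 1.70 (1.52 to 1.89). Osteoblast-lineage markers had a summed level of 1176 and 737 CPM in these nuclei, with 1 and 4 of the 8 at 0. Their level was 337 to 436 CPM in the other 3 subclusters and 5748 and 5222 CPM in the osteoblast-lineage-like class, whose Fgf13 was at 902 and 383 CPM, and the part of such RNA in the Fgf13 level was not tested. Myeloid markers, the other class rich in Fgf13, summed to 69 and 54 CPM in the late inner-like subcluster against 3252 and 2479 CPM in the myeloid-like class.

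Fgf1 ran the other way. It was at 8.83 and 14.0 CPM in the late inner-like subcluster (32 and 77 UMIs) and at 100.2 and 94.2 CPM in the Igfbp3-led leptomeningeal-like subcluster (386 and 382 UMIs), where the log2 ratio over the other fibroblast-like nuclei was 2.48 (2.22 to 2.74) and 2.44 (2.19 to 2.71). In the same leptomeningeal-like nuclei Fgf7 was at 8.05 and 7.40 CPM, log2 ratios of -2.63 (-3.23 to -2.13) and -3.38 (-3.98 to -2.88). The Dcdc2a-led leptomeningeal-like subcluster differed, with Fgf7 at 97.0 and 92.4 CPM and Fgf1 at 28.3 and 18.9 CPM. Of the pair, the Igfbp3-led subcluster thus held more Fgf1 and the Dcdc2a-led more Fgf7 in both libraries. Over the other fibroblast-like nuclei, Fgf7 in the Dcdc2a-led subcluster had log2 ratios of 1.51 (1.20 to 1.81) and 0.74 (0.47 to 1.00). Fgf7 was thus past 2-fold there in the control-labelled library alone, whose female nuclei held few of its UMIs, as given below. Arhgap26, on the strand opposite Fgf1, was at 218 and 330 CPM in the Igfbp3-led and 168 and 221 CPM in the Dcdc2a-led subcluster.

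The receptors varied less with state. Fgfr1 was lowest in the Ccn3-led subcluster, at 271 and 257 CPM. It was higher in the leptomeningeal-like pair, at 514 and 528 CPM in the Igfbp3-led and 487 and 540 CPM in the Dcdc2a-led subcluster. No Fgfr1 ratio to the other fibroblast-like nuclei passed 2-fold. Fgfr2 was highest in the late inner-like subcluster at 621 and 453 CPM, log2 ratios of 1.13 (1.05 to 1.21) and 0.71 (0.63 to 0.79), so that 2-fold was passed in the control-labelled library alone. It was lowest in the Igfbp3-led subcluster at 210 and 224 CPM. Fgfr1 and Fgfr2 thus had opposite orders in these 2 states. Fgf18 was at 11.6 and 10.0 CPM in the late inner-like subcluster (42 and 55 UMIs) and at most 2.71 CPM in the other 3.

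**Figure D3:**
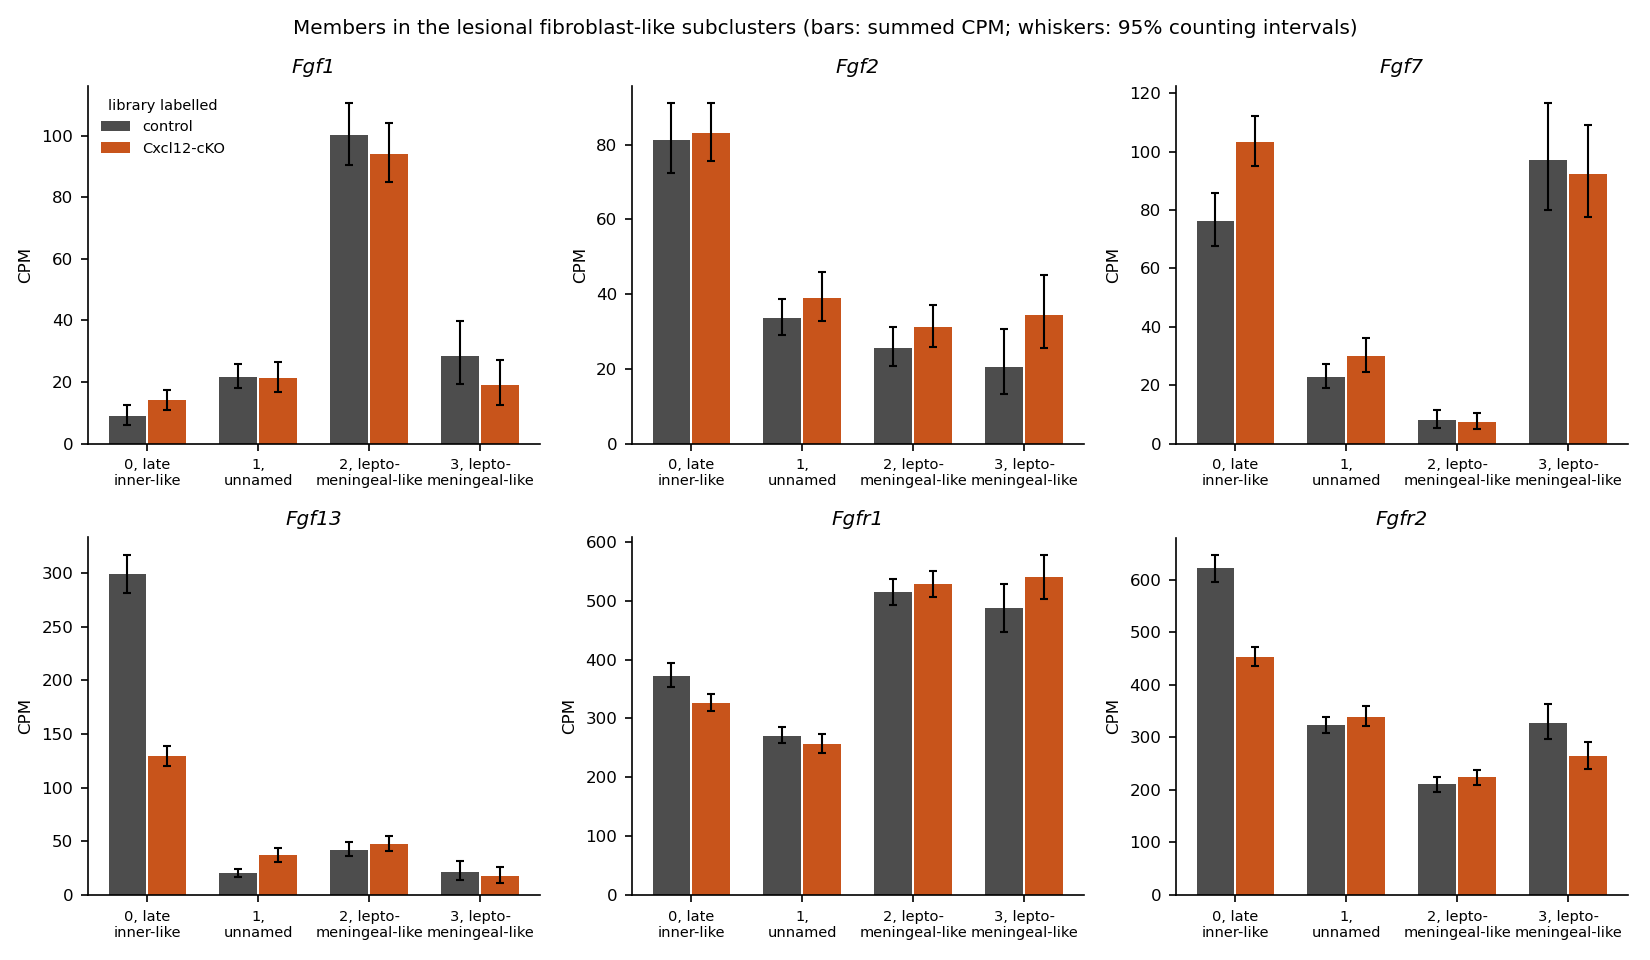
Members in the 4 lesional fibroblast-like subclusters; bars are summed CPM from 0, whiskers 95% counting intervals, colours the control- and cKO-labelled libraries. Fgf2, Fgf7 and Fgf13 are higher in the late inner-like subcluster, Fgf1 in the Igfbp3-led leptomeningeal-like subcluster at 100.2 and 94.2 CPM, and Fgf7 is also high in the Dcdc2a-led subcluster at 97.0 and 92.4 CPM.

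Pathway genes also differed between states. In the Dcdc2a-led subcluster, the targets Etv1 and Etv5, transcription factors induced by FGF signals, were higher, and Il17rd, a feedback inhibitor, was lower, among 8 targets open to a call. Etv1 was at 146 CPM there against 18.4 CPM in the other fibroblast-like nuclei of the control-labelled library, a log2 ratio of 2.99 (2.70 to 3.28), and the ratio was 2.89 (2.62 to 3.16) in the cKO-labelled library. Etv1 was lower in the Ccn3-led subcluster, with log2 ratios of -2.16 and -1.89, as were the heparan sulfate carriers Sdc3 (-2.23 and -1.40) and Gpc1 (-1.35 and -1.27), Scn7a (-1.82 and -1.62) and Flrt3 (-1.25 and -1.10). In the late inner-like subcluster none of the 8 targets was past 2-fold, whereas the heparan sulfate carrier Gpc1 (1.92 and 1.41) and the sodium channel gene Scn7a (2.69 and 2.34) were higher and the membrane modulators Flrt1 (-1.33 and -1.63) and Flrt3 (-1.93 and -1.58) lower. Flrt3 was higher in the Igfbp3-led subcluster, at log2 ratios of 1.71 and 1.66, where the heparan sulfate sulfotransferase Hs6st2 (-2.14 and -1.77) and the glypican Gpc6 (-1.25 and -1.18) were lower, as was Scn7a (-3.52 and -2.50). Gpc1 was lower in the Dcdc2a-led subcluster (-2.93 and -1.35). The median log2 ratio of the 8 targets in the late inner-like subcluster was 0.24, beside 0.01 over all genes.

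Whether the members differed between the control- and cKO-labelled libraries was asked in the lesional fibroblast-, myeloid- and astrocyte-like nuclei and in the excitatory-neuron-like nuclei of the parenchyma. Few did. Of 8 members open to a call in fibroblast-like nuclei, 1 was past 1.5-fold, beside 3.96% of all genes, and of 6 in astrocyte-like nuclei 1, beside 5.85%. None of 5 in myeloid-like nuclei and none of 8 in excitatory-neuron-like nuclei was, beside 4.14% and 1.73%. The shares in the fibroblast- and astrocyte-like nuclei each rest on a single gene.

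In fibroblast-like nuclei that gene was Fgf7, at 39.2 CPM (564 UMIs) in the control-labelled library and 59.0 CPM (877 UMIs) in the cKO-labelled library, a log2 ratio of 0.59 (0.43 to 0.74). The ratio lay close to the 1.5-fold limit, and the call was lost at a clustering resolution of 0.5 and without the nuclei of highest doublet scores. It was not shared by the mice. In nuclei assigned to the female mice by X- and Y-linked transcripts, Fgf7 was at 28 CPM and 104 CPM, a log2 ratio of 1.91 (1.66 to 2.17). In male nuclei it was at 44 and 34 CPM, a ratio of -0.38 (-0.65 to -0.11). The late inner-like subcluster repeated this, with 52.3 and 191 CPM in female nuclei and 81.6 and 55.4 CPM in male nuclei, and so did the Igfbp3-led subcluster, with 2.32 and 10.1 CPM and 14.2 and 2.94 CPM. In the Ccn3-led subcluster both sexes were higher in the cKO-labelled library, at 32.3 and 51.7 CPM in female and 15.2 and 19.0 CPM in male nuclei. In the Dcdc2a-led subcluster female nuclei were at 19.4 CPM (6 UMIs) and 121 CPM and male nuclei at 93.4 and 95.5 CPM. Over all fibroblast-like nuclei the libraries thus differed in opposite directions in the female and the male mice, and what belongs to a mouse and what to its genotype cannot be told apart. Fam227b in female fibroblast-like nuclei was at 31.2 and 21.5 CPM.

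The other ligands differed less in fibroblast-like nuclei. Fgf2 was at 42.6 and 52.6 CPM, a log2 ratio of 0.30 (0.15 to 0.46), with 0.33 in female and 0.34 in male nuclei. Fgf1 gave -0.06 (-0.23 to 0.11). Fgf18 gave 0.31 (-0.21 to 0.84), with -0.44 in female and 0.72 in male nuclei, on 56 and 72 UMIs. Of the receptors, Fgfr1 gave 0.02 (-0.03 to 0.07) and Fgfr2 -0.11 (-0.17 to -0.05), intervals within which a 1.5-fold difference between these libraries does not lie. Fgfr3 gave -0.34 (-0.93 to 0.23), an interval too wide to leave out such a difference.

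Fgf13 in fibroblast-like nuclei was at 97.5 CPM (1401 UMIs) and 72.8 CPM (1082 UMIs), a log2 ratio of -0.42 (-0.54 to -0.31), with 0.18 (-0.03 to 0.38) in female and -0.61 (-0.79 to -0.44) in male nuclei, so that in male nuclei alone Fgf13 was past 1.5-fold and Fgf7 was not. Within the late inner-like subcluster, a comparison added after the data were seen, the mice shared the direction: Fgf13 was at 243 and 135 CPM in female nuclei and at 310 and 129 CPM in male nuclei. The log2 ratio was -1.21 (-1.35 to -1.07) over all of these nuclei, -0.85 in female and -1.26 in male nuclei. Thinned to 1000 UMIs per nucleus, 15.6% and 6.68% of late inner-like nuclei held an Fgf13 UMI. Finer clustering split the late inner-like nuclei, and the Fgf13 lay mainly in a group led by Col24a1, Ebf3 and Sox6, at 671 CPM (829 UMIs in 343 nuclei) and 230 CPM (491 UMIs in 475 nuclei). The Nav2-led group (493 and 691 nuclei) held 74.2 and 55.9 CPM and the Kctd8-led group (194 in each) 136 and 74.3 CPM. Osteoblast-lineage-like nuclei had a like difference, with a log2 ratio of -1.23, and made up 348 and 84 nuclei of the libraries. Fgfr2 in the late inner-like subcluster was also lower in the cKO-labelled library in both mice, with log2 ratios of -0.52 in female and -0.39 in male nuclei.

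**Figure D4:**
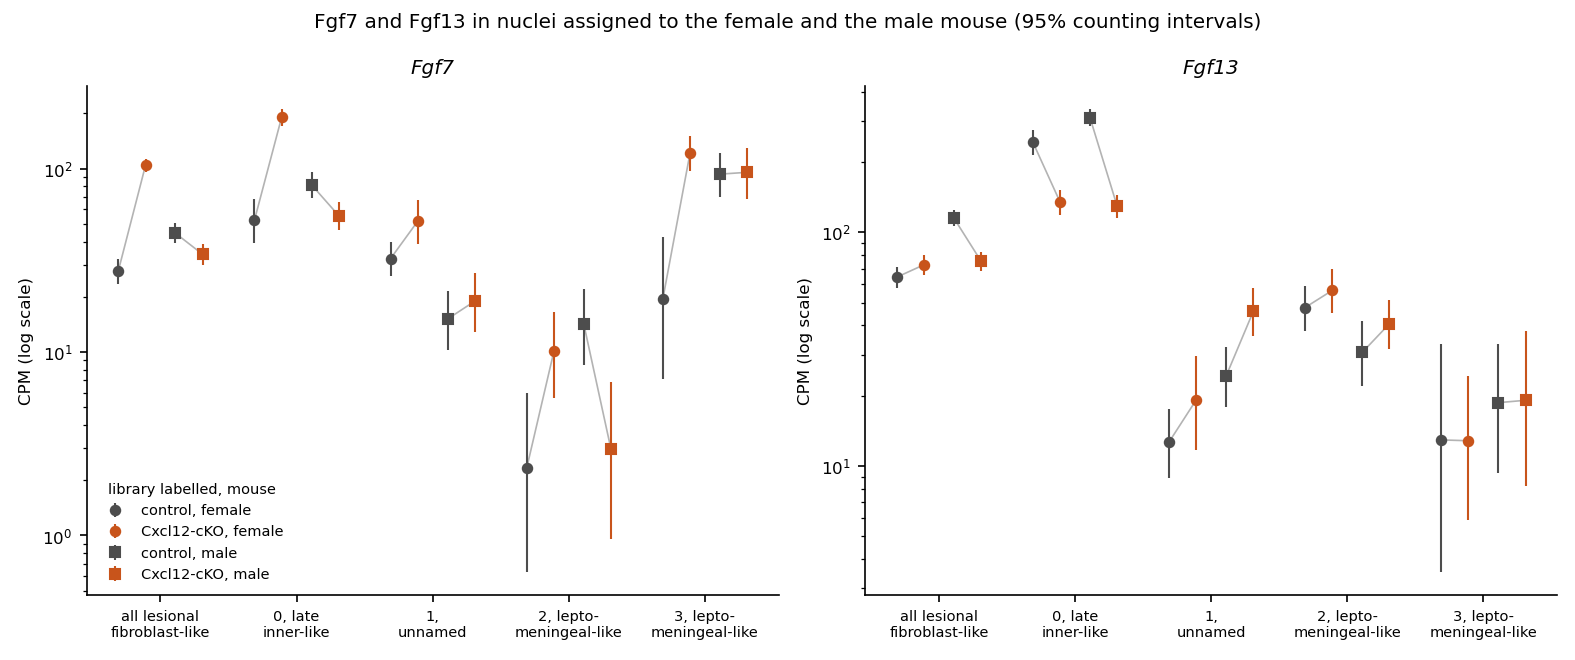
Fgf7 and Fgf13 (CPM, log axis) in lesional fibroblast-like nuclei and their subclusters, split into nuclei assigned to the female and the male mouse of the control- and cKO-labelled libraries; bars are 95% counting intervals. Fgf7 is higher in the female and lower in the male nuclei of the cKO-labelled library (28 to 104 and 44 to 34 CPM), while Fgf13 in the late inner-like subcluster is lower in both.

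In astrocyte-like nuclei of the lesion the gene past 1.5-fold was Fgf2, at 222 and 365 CPM, a log2 ratio of 0.72 (0.53 to 0.90), with 0.50 (0.21 to 0.80) in female and 0.87 (0.56 to 1.20) in male nuclei. Nudt6 was at 11.8 and 10.2 CPM in the same nuclei. The makeup of the class differed between the libraries. A subcluster led by A2m and Tgm1 with Gfap and Aqp4 held 177 and 297 nuclei and had Fgf2 at 386 and 428 CPM. A subcluster of 201 and 138 nuclei had Fgf2 at 79.8 and 218 CPM (50 and 101 UMIs), and carried oligodendrocyte-precursor markers with a summed level of 5218 and 5875 CPM against 925 and 886 CPM in the former. In a subcluster led by Grin2c and Slc7a10 (55 nuclei in the control-labelled library), Fgf2 was at 5.23 CPM, from 1 UMI. Fgf2 was thus high in the Gfap-bearing astrocyte-like nuclei of both libraries. More nuclei of the cKO-labelled library were of that kind, and Fgf2 also differed within the subcluster of 201 and 138 nuclei. The part of the makeup in the ratio over the class was not tested. Other members open to a call in astrocyte-like nuclei gave log2 ratios from -0.24 (-0.40 to -0.08) for Fgfr2 to 0.30 (0.08 to 0.52) for Fgf13.

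In myeloid-like nuclei Fgf13 gave a log2 ratio of 0.13 (0.07 to 0.20), with 0.12 in female and 0.37 in male nuclei, and Fgfr2 gave -0.23 (-0.41 to -0.05). Excitatory-neuron-like nuclei of the parenchyma were the class with the most nuclei away from the lesion. Among the members open to a call there, Fgf10 gave the ratio farthest from 0 at 0.30 (0.12 to 0.48), followed by Fgf2 at 0.25 (-0.19 to 0.70).

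Of the pathway lists, few genes were past 1.5-fold between the libraries, and those named differed the same way in female and male nuclei. Etv4, a transcription factor induced by FGF signals, was the only one of 13 targets open to a call that was past it in fibroblast-like nuclei, at 3.48 and 6.33 CPM, a log2 ratio of 0.86 (0.35 to 1.39), with 1.21 in female and 0.99 in male nuclei. It was also past it in the astrocyte-like class, at 26.1 and 45.3 CPM, with 1.05 in female and 0.69 in male nuclei and 7 targets open. The median log2 ratio of the targets was 0.20 in fibroblast-like and 0.28 in astrocyte-like nuclei, beside 0.00 and -0.01 over all genes. Sulf2 was lower in astrocyte-like nuclei, at 237 and 139 CPM, with -0.52 in female and -0.83 in male nuclei, the immediate-early gene Egr1 in myeloid-like nuclei at 15.5 and 10.2 CPM, and the cyclin gene Ccnd1 in parenchymal excitatory-neuron-like nuclei at 6.04 and 3.93 CPM. None of the 15 heparan sulfate genes, 6 adaptors, 4 modulators, 5 sodium channel genes and 3 other homologous factors open in fibroblast-like nuclei was called. Of the collagen genes, which other cells can carry as free RNA, Col1a1 was lower in the cKO-labelled library in myeloid-like nuclei, at 95.2 and 55.8 CPM, and in astrocyte-like nuclei, at 82.6 and 53.5 CPM. Col1a2 was lower in myeloid-like nuclei, at 145 and 78.7 CPM, as was Cx3cr1, a gene of the myeloid cells themselves, at 341 and 208 CPM. Col3a1 was higher in parenchymal excitatory-neuron-like nuclei, at 3.92 and 6.73 CPM, and the part of these genes in the members' ratios was not tested.

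Nuclei of the lesion were compared with those of the parenchyma within each library, where the mice are the same. In excitatory-neuron-like nuclei, 2 of 6 members open to a call, Fgf1 and Fgfr2, were past 1.5-fold lower in the lesion in both libraries, beside 16.8% of all genes called, of which 2089 of 2177 were lower in the lesion. Fgf1 was at 6.24 CPM (42 UMIs) in the lesion and 38.1 CPM in the parenchyma of the control-labelled library, a log2 ratio of -2.59 (-3.09 to -2.17), and at 5.57 CPM (16 UMIs) and 36.1 CPM in the cKO-labelled library, a ratio of -2.66 (-3.51 to -1.99). Fgfr2 was at 79.6 and 219 CPM and at 66.1 and 206 CPM, ratios of -1.46 (-1.59 to -1.33) and -1.64 (-1.86 to -1.43). The median over all genes open to the comparison was -0.13.

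For Fgfr2 and Fgf1 the same direction held within each layer type. Fgfr2 gave -1.22 and -1.23 in layer 5, -1.21 and -1.64 in layer 6, -1.37 and -1.28 in middle-layer and -1.67 and -1.90 in upper-layer excitatory-neuron-like nuclei. Fgf1 gave ratios from -3.85 to -1.62, resting on only 2 to 17 lesional UMIs in a type and library. Over the whole class, the neuronal ligand Fgf10 had ratios of 0.35 (0.01 to 0.66) and 0.49 (0.05 to 0.87), and Fgf13 of -0.27 and -0.26. By layer type Fgf13 did not keep a direction. It gave -0.07 and 0.51 in upper-layer, -0.26 and -1.08 in middle-layer, -1.86 and 0.44 in layer 5 and 0.25 and -0.21 in layer 6 nuclei. Summed oligodendrocyte markers, a class rich in Fgfr2 and Fgf1, were at 78 and 67 CPM in lesional and 71 and 66 CPM in parenchymal excitatory-neuron-like nuclei, and astrocyte markers at 544 and 592 against 466 and 450 CPM, and their part in these ratios was not tested. Fibroblast markers were at 97 and 68 CPM in the lesion and 61 and 60 CPM in the parenchyma, Col1a1 alone at 23.0 and 13.2 against 6.90 and 6.52 CPM. Arhgap26, opposite Fgf1, was at 462 and 457 CPM in the lesion and 382 and 386 CPM in the parenchyma.

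**Figure D5:**
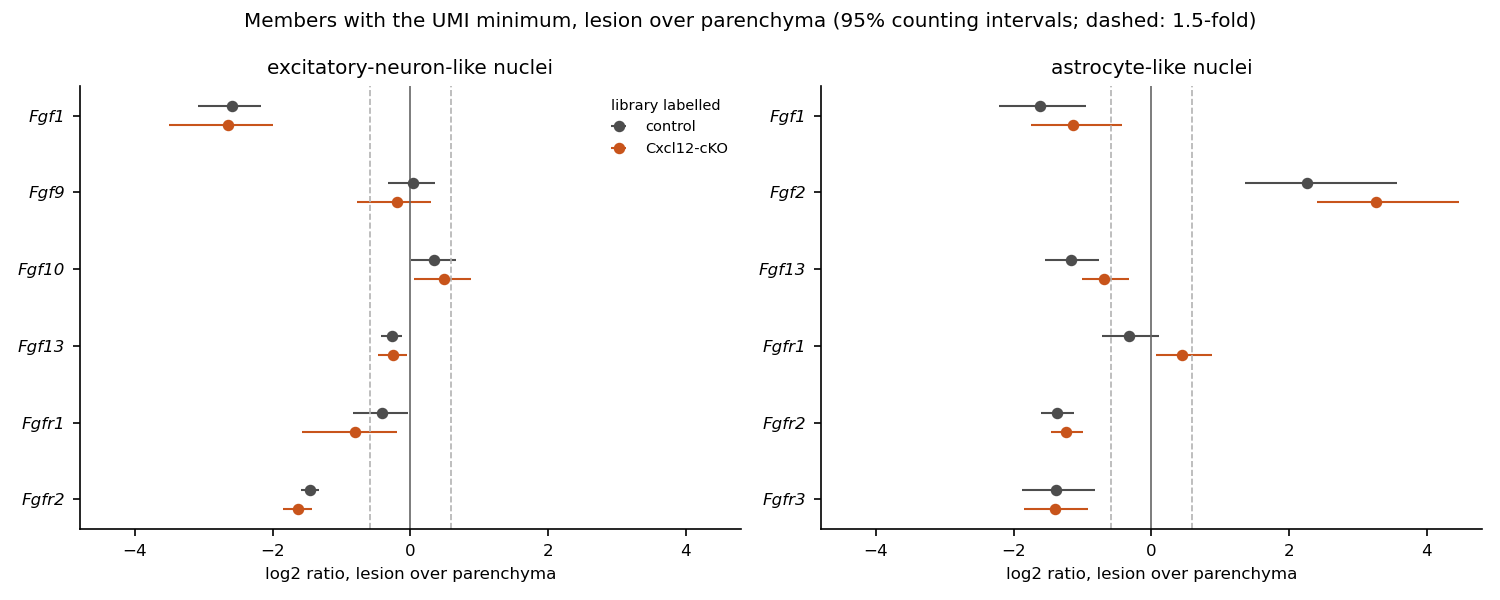
Log2 ratio of lesion over parenchyma for the members with the UMI minimum in excitatory-neuron-like and astrocyte-like nuclei, for the control- and cKO-labelled libraries, with 95% counting intervals and dashed lines at 1.5-fold. Fgf1 and Fgfr2 lie left of the line in both classes, Fgf2 lies right of it in astrocyte-like nuclei at 2.26 and 3.26.

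In astrocyte-like nuclei, with 37 and 46 nuclei in the parenchyma, 5 of 6 members were past 1.5-fold, beside 30.7% of all genes. Fgf2 was higher in the lesion, at 222 against 43.6 CPM and 365 against 36.1 CPM, log2 ratios of 2.26 (1.35 to 3.57) and 3.26 (2.40 to 4.47). The receptors Fgfr2 (391 against 1007 and 332 against 779 CPM) and Fgfr3 (84.5 against 218 and 79.3 against 209 CPM) were lower, with ratios of -1.37 and -1.23 and of -1.38 and -1.41. Fgf1 (-1.61 and -1.14) and Fgf13 (-1.17 and -0.68) were lower as well, whereas Fgfr1 gave -0.32 (-0.71 to 0.11) and 0.45 (0.06 to 0.88). At a clustering resolution of 0.5 the Fgfr3 ratios turned to 0.78 and 0.43 and 3 members were past 1.5-fold, with 3 in female nuclei alone, 2 in male nuclei alone and 1 after thinning. The regions also lay in different subclusters: 33 of 37 and 42 of 46 parenchymal nuclei were in the Grin2c- and Slc7a10-led subcluster, which held 55 and 20 of the lesional nuclei. These ratios therefore compare different kinds of astrocyte-like nuclei as well as regions. Astrocyte markers summed to 6093 and 7054 CPM in the lesion and 13206 and 11859 CPM in the parenchyma, and oligodendrocyte-precursor markers to 2606 and 2018 against 196 and 466 CPM, and their part in these ratios was not tested.

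Genes of heparan sulfate were higher in lesional astrocyte-like nuclei for 4 of the 9 open to a call and lower for none, and 5 were not called, beside 795 of 3539 genes called higher in this comparison. Sulf1 and Sulf2, sulfatases that trim heparan sulfate outside the cell, gave log2 ratios of 3.21 (2.51 to 4.13) and 2.90 (2.39 to 3.52), and of 2.36 and 2.66. Gpc4 (1.54 and 1.06), Ndst1 (1.57 and 0.86) and the adaptor Gab1 (1.10 and 0.96) were higher, Scn8a (-0.67 and -0.64) was lower and none of 4 targets was called. The median over the 9 heparan sulfate genes was 0.90, beside 0.28 over all genes. In excitatory-neuron-like nuclei, genes of the pathway lists past 1.5-fold and lower in the lesion included Flrt3 (-1.73 and -1.86), Fgfbp3 (-1.52 and -1.62), Scn9a (-1.49 and -1.50), Ccnd1 (-0.79 and -1.33) and Gpc3 (-0.93 and -0.62).

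For each member, the genes with the most similar profile over 13 class and region units of the control-labelled library were listed, with the correlation in the cKO-labelled library in second place. They are a description, since the units share libraries and depth. Fgf2 was closest to Sugct (r of 0.96 and 0.91), Coq8b (0.95 and 0.87) and the astrocyte glutamate transporter gene Slc1a3 (0.94 and 0.92). Fgf9 was closest to the GABA receptor subunit gene Gabrg3 (0.94 and 0.92), Eml6 and Slc35f3 (0.94 and 0.88 each). Fgfr1 lay near Adamts5 (0.96 and 0.75), Gli3 (0.96 and 0.95) and Slc25a47 (0.96 and 0.64), and Fgfr2 near Tgfb3 (0.86 and 0.76), Naaladl2 (0.85 and 0.82) and Adamtsl1 (0.85 and 0.84). Fgf13 was closest to Maf (0.86 and 0.67), Arl4c (0.81 and 0.81) and Ankrd55 (0.79 and 0.43). Fgf1 was paired with Gm7467 (0.87 and 0.43), Fbxl21 (0.86 and 0.31) and Pgam5 (0.85 and 0.55), and Fgf7 with Aoc3 (0.92 and 0.50), Lrrc17 (0.90 and 0.75) and Twist1 (0.90 and 0.58). Fgf10 was paired with Brcc3dc (0.99 and 0.79), 4930598N05Rik (0.99 and 0.50) and Xkr7 (0.98 and 0.83). Fgfr3 was paired with the bone gene Pth1r (0.94 and 0.69), Nupl2 (0.90 and 0.21) and Ptar1 (0.90 and 0.76), and Fgf18 with 2900042K21Rik (0.91 and 0.50), 4732419C18Rik (0.87 and 0.50) and Slc25a29 (0.87 and 0.69).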

How the data were processed

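Single-nucleus gene expression was measured in 2 libraries, and nuclei were assigned to lesion or parenchyma by tag libraries. The authors deposited 4 matrices of raw UMI counts per gene and barcode, made with Cell Ranger 9.0.0 per the labels on a GRCm39 reference. The settings for intronic reads and strand were not given in the sources used here. Barcodes outside the 2.5% tails of UMIs and genes, or above that tail of mitochondrial share, were removed (1746 of 23489), leaving 8095 and 7933 lesional and 2877 and 2838 parenchymal nuclei. Nuclei were clustered in scanpy 1.11.5 (3000 variable genes, 30 components, 20 neighbours, resolution 0.25) without 78 FGF family and pathway genes, and named from fixed markers. Marker genes of other cells' RNA were not among those left out. Scrublet marked 0, 2, 273 and 2 nuclei in the 4 matrices, so it did not work in 3 of them and doublets were not removed. Instead, subclusters with over 25% of nuclei holding UMIs of both sexes were left out.

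UMIs were summed per class and divided by the class total (CPM), with a prior of 0.5 UMI in ratios. A gene was open to a call with at least 100 UMIs, and called past 1.5-fold between libraries or, the same way in both libraries, past 1.5-fold between regions or 2-fold between fibroblast states. The ratios and calls were checked on simulated counts with counting error alone, which hold no variation between mice or libraries. Members and lists were chosen with earlier results of these data known. All members were named. A list gene was named where it was called, at most 6 a comparison, and, between libraries, where it differed in the same direction in female and male nuclei. The result of 1 further called list gene is not reported here. A limit of 3 counts is the floor behind a value of 0. Promoter letters came from RefSeq tables of GRCm38.p6, another build than the counts use. Promoters were listed for 8 members and not for Fgf1 and Fgfr1. The 11 planned and 1 added processing alternatives are compared in the closing section.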

Additional observations from a re-analysis of the deposited data

Results flagged for a closer look

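In lesional fibroblast-like nuclei, Fgf7 was higher in the cKO-labelled library in nuclei of the female mice, with a log2 ratio of 1.91, and lower in nuclei of the male mice, with a log2 ratio of -0.38. The result was singled out because the female and male ratios have opposite signs. The difference between them was not tested, since each sex is 1 mouse a library.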

How the results depend on the processing

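Settings changed some counts of members called. With no UMI minimum, the members called between the libraries numbered 2 in fibroblast-like, 3 in myeloid-like and 4 in astrocyte-like nuclei (7405, 6971 and 7751 of all genes, against 501, 380 and 343), and those between fibroblast states 17 (9432 of all genes, against 2748). At resolution 0.5, none was called in fibroblast-like nuclei (0; 460 of all genes) and 3 between regions in astrocyte-like nuclei (565, against 1086). Assigning each nucleus by its own markers gave 2 in fibroblast-like (505) and 1 in myeloid-like nuclei (339). Without the highest Scrublet scores, the call of Fgf7 in fibroblast-like nuclei was lost (0; 470). Female nuclei alone gave 0 members in astrocyte-like nuclei (223) and 3 between regions there (640), male nuclei 2 (399). Thinned to 1000 UMIs, which leaves fewer genes open to a call, 1 member was called between regions in excitatory-neuron-like (171, against 2177) and 1 in astrocyte-like nuclei (330). The count over all genes alone moved by over 1.5 times with no UMI minimum in excitatory-neuron-like nuclei (6770 between libraries, against 256, and 5917 between regions) and between regions in astrocyte-like nuclei (6180), with female nuclei in myeloid-like nuclei (639) and between states (1613), with male nuclei in fibroblast-like (292) and myeloid-like nuclei (152), and on thinning between libraries (242, 201, 137 and 86 in fibroblast-, myeloid-, astrocyte- and excitatory-neuron-like nuclei) and between states (1618). Apart from thinning, the cause of these shifts was not tested.

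Reversed values were few. The ratio of Fgfr3 in astrocyte-like nuclei, lesion over parenchyma, was 0.78 and 0.43 at resolution 0.5. Fgf7 in the Ccn3-led subcluster over the other fibroblast-like nuclei of the control-labelled library was 0.46 in female nuclei, and Fgf7 between the libraries was -0.38 in male nuclei. Of 200 values, median-of-ratios scaling moved 5, keeping mixed subclusters, an alternative chosen after seeing the data, moved 2, and thinning moved 52. Fibroblast states with nuclei assigned by their own markers were not run. No paired analysis was possible because each group is 1 library, with no second replicate number to share. Regions and sexes were compared within a library or a sex.

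Depth limits Fgf18, Fgf9 and Fgf10 in fibroblast-like nuclei and Fgf2 and Fgf7 in neurons. No value has a replicate, and female and male nuclei are 1 mouse each.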

Other observations

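Parenchymal fibroblast-like nuclei (51 and 50) were too few for a comparison with the lesion. They held Fgf1 at 93.8 and 70.3 CPM (21 and 15 UMIs) and Fgf13 at 286 and 108 CPM. In excitatory-neuron-like nuclei of the parenchyma, Fgfr1 was at 26.3 and 31.7 CPM in layer 5, 21.1 and 19.8 CPM in layer 6 and 4.24 and 5.37 CPM in the middle layer. Fgf1 was at 54.8 and 59.0 CPM in the middle-layer and 27.7 and 27.6 CPM in the upper-layer nuclei, and at 148 and 157 CPM in Pvalb or Sst interneuron-like nuclei.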
